A study of Mus musculus with 8 samples.

Results

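The epidermal growth factor (EGF) family and its ERBB receptors were followed in luminal cells of the mouse mammary gland, as 6 ligand genes (Areg, Btc, Hbegf, Tgfa, Ereg and Epgn) and the 4 receptor genes Egfr, Erbb2, Erbb3 and Erbb4. The 10 genes were those entries of the deposited count table whose Entrez Gene ID maps to these symbols, out of 24594 genes listed. RNA was sequenced in bulk from 4 libraries of luminal progenitors (LP, sorted as c-Kit high) and 4 libraries of luminal differentiated cells (called mature here, sorted as c-Kit low). Cells came from the virgin gland of wild type C57BL/6J mice that received no specific treatment, so both groups shared strain, genotype and treatment. The labels give no age, while the study's methods give an age range in weeks for its experimental mice in general. Per the labels the sort used EpCAM, CD49f, c-Kit and CD14, while the study's text names c-Kit alone for these samples, so the levels of Kit and possibly Cd14 reflect the sort itself. The study's methods speak of biological replicates but give a number other than that of the deposited libraries, and no source used here ties a library to an animal, so the p-values measure only the spread between these libraries.

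The ligands of this family are made as membrane-bound precursors and are released by metalloproteases of the ADAM family. A released ligand binds EGFR, ERBB3 or ERBB4 on the same or a neighbouring cell, the receptors pair, and the signal passes through the MAP kinase and PI3 kinase cascades. ERBB2 binds no known ligand and acts as a partner of the others, while ERBB3 has little kinase activity of its own. In the mammary gland amphiregulin, the product of Areg, is known as a paracrine signal made by oestrogen-responsive luminal cells during ductal growth, and ERBB4 is known for its part in lobuloalveolar differentiation and lactation.

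The libraries held 5510863 to 7089597 counts on genes in LP and 4410049 to 7791593 in mature cells. The 5 LP marker genes (Kit, Cd14, Elf5, Aldh1a3 and Csn3) were each higher in every LP library than in any mature library, and their summed level was 16171 to 26255 CPM (a gene's count relative to the TMM-scaled size of its library) against 343 to 1639 CPM. The 5 hormone-sensing markers (Pgr, Esr1, Prlr, Foxa1 and Cited1) summed to 307 to 996 CPM in LP and 4345 to 6142 CPM in mature cells, and only Esr1 overlapped. Of the defining genes of other cell types, Kdr, Cd3e and Cidec were at 0 in all 8 libraries and Ptprc was at 2 counts or fewer, but the fibroblast gene Dcn reached 132 and 154 CPM in mature replicates 1 and 2, Pdgfra 16.3 CPM in mature replicate 2, and the basal genes Krt14 and Acta2 18.6 and 16.6 CPM in mature replicate 3. The basal gene Oxtr was instead higher in most LP libraries, at 8.28, 11.9, 8.30 and 1.11 CPM in LP replicates 1 to 4. In mature cells Oxtr was at 3.18 CPM in replicate 3 and at 0 elsewhere. The endothelial gene Pecam1 had 2.91 to 8.19 CPM in LP and 0.984 to 7.94 CPM in mature cells. The immune gene Csf1r had 2.91 to 7.47 CPM in LP and 3.18 to 4.92 CPM in mature cells. Mature replicate 3 stood apart from the other mature libraries. It lay nearest to LP on the first principal component (50% of the variance, 32.6 against 56.2 to 86.4 for the other mature libraries and -73.4 to -53.6 for LP), it had the highest sum of LP markers among the mature libraries (1639 CPM), the highest sum of the 6 basal markers (47.2 CPM against 4.02 to 24.4 CPM elsewhere) and the highest sum of 12 dissociation-response genes (15487 CPM, of which Hspa1a made 8253, against 3711 to 4222 CPM in the other mature libraries). Results that rest on it are given with and without it.

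Of the ligand genes, 4 lie next to each other on chromosome 5 (mm10), with no protein-coding gene annotated between them. In order they are Epgn (91027517 to 91035212, plus strand), Ereg (91074617 to 91093649, plus strand), Areg (91139599 to 91148432, plus strand) and Btc (91357261 to 91402994, minus strand), within a span of 375 kb. Areg and Btc are separated by 209 kb, and the other gaps are 39.4 kb and 45.9 kb. The 250 bases before the annotated start of Areg, Epgn and Btc are shown because Areg and Epgn were called different between the fractions while Btc, their neighbour, was not. They are at chr5:91139349-91139598 on the plus strand for Areg, chr5:91027267-91027516 on the plus strand for Epgn and chr5:91402995-91403244 on the minus strand for Btc, from RefSeq on GRCm38.p6, and are written 5′ to 3′ in the direction of transcription. Capitals mark letters that match a searched motif.
Areg: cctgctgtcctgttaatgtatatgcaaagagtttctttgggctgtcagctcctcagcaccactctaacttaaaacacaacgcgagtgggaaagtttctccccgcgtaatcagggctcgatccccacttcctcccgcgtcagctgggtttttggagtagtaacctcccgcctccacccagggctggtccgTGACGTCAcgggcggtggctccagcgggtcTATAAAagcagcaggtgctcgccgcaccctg
Epgn: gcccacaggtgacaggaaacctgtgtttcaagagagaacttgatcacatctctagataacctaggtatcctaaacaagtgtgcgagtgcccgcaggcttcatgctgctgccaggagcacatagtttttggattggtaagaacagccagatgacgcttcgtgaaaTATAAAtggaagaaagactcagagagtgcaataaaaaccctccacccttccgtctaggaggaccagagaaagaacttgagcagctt
Btc: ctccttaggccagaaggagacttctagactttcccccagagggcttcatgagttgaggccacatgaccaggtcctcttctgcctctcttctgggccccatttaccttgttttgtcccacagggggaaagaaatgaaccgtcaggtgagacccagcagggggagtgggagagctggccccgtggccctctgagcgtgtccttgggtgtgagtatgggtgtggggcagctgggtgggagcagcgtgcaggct
The motifs searched on both strands were the cAMP response element TGACGTCA, the AP-1 site TGANTCA, the nuclear receptor half-site AGGTCA and the TATA box TATAAA. The Areg stretch held 1 cAMP response element, beginning 61 bases before the start, and 1 TATA box beginning 31 bases before it. Epgn held 1 TATA box beginning 86 bases before the start, and Btc held none of the 4 motifs. Among 32851 promoters of the same length, 1.55% held the cAMP response element, 12.4% the TATA box, 6.75% the AP-1 site and 14% the half-site. Promoter entries were matched for 7 of the 10 genes, and those of Tgfa, Egfr, Erbb2 and Erbb4 held none of the motifs. The Tgfa stretch (86194972 to 86195221) ran past the gene start at 86195038. The Erbb4 stretch (69108060 to 69108309) lay within the gene, which starts at 69108576 on the minus strand. For these 2 genes the search therefore did not cover the bases before the gene start. Ereg, Erbb3 and Hbegf had no entry used here. A match describes the letters and is not evidence of a bound factor.

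Of the ligands, Areg, Epgn and Hbegf were higher in mature cells at an adjusted p-value below 0.05, no ligand was higher in LP, and Tgfa, Btc and Ereg did not pass the test. Of the receptors, Erbb4 was higher in LP and the other three did not pass. This comparison used edgeR's quasi-likelihood F-test with Benjamini-Hochberg adjustment over 12816 tested genes, and a positive log2 fold change means a higher level in LP. Ereg was too low to be tested, so 9 of the 10 genes were. The 4 genes called compare with 24.7% of all tested genes called in either direction, the 1 higher in LP with 10.9%, and the 3 higher in mature cells with 13.8%. Areg, Epgn and Tgfa passed the filter on low counts only through the mature libraries, so the count over tested members is a description.

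Areg had 38.8, 48.3, 25.0 and 3.01 CPM in mature replicates 1 to 4 and 0.581, 3.16, 1.16 and 0 CPM in LP replicates 1 to 4. In raw counts these were 276, 184, 173 and 20 in mature cells and 4, 22, 7 and 0 in LP. All mature libraries but replicate 4 were far above LP, and replicate 4 was just below LP replicate 2, so the fractions overlapped. The mean was 28.8 ± 19.7 CPM in mature cells and 1.23 ± 1.38 CPM in LP (SD, n = 4 each). In edgeR the log2 fold change was -4.53 (SE 0.986, 95% interval -6.71 to -2.35, adjusted p = 0.00783), a level 23.1-fold higher in mature cells. The call held when each library was left out in turn, with adjusted p-values of 0.00352 to 0.0277 in edgeR, and the log2 fold change was -5.63 without LP replicate 2.

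The oestrogen receptor gene Esr1 and the progesterone receptor gene Pgr, whose products mark the hormone-sensing cells, were both higher in mature cells. Esr1 had 374, 322, 109 and 221 CPM in mature replicates 1 to 4 and 39.5 to 117 CPM in LP, and Pgr had 140 to 195 CPM in mature cells and 11.2 to 40.9 CPM in LP. Areg was low in mature replicate 4, where Pgr had its highest value of 195 CPM. The summed level of the 5 fibroblast markers was 135, 174, 24.7 and 21.7 CPM in mature replicates 1 to 4 and 7.35 to 39.1 CPM in LP, with none of the 5 genes separating the fractions, so it was highest in the same libraries as Areg. Dcn made 132 and 154 CPM of it in mature replicates 1 and 2, while Col1a1 was at 0 in both. The part of such cells in the Areg values was not tested. In bulk libraries, fewer cells of a type and less RNA per cell cannot be told apart.

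Epgn encodes epigen, a ligand of EGFR. It had 9.70, 10.5, 30.6 and 2.86 CPM in mature replicates 1 to 4 and 0.436, 1.58, 0 and 4.30 CPM in LP replicates 1 to 4. Replicate 3 was the highest mature library, and mature replicate 4 was below LP replicate 4, so the fractions overlapped. The mean was 13.4 ± 12.0 CPM in mature cells and 1.58 ± 1.93 CPM in LP (SD, n = 4 each), with a log2 fold change of -3.06 (SE 1.01, 95% interval -5.29 to -0.82) and an adjusted p = 0.0492 in edgeR. The call was close to the threshold. Leaving out mature replicate 3 gave -2.22 with adjusted p = 0.145 in edgeR, and it was also lost without LP replicate 1 (0.117), LP replicate 2 (0.111), LP replicate 3 (0.0728), mature replicate 1 (0.0685) or mature replicate 2 (0.0734). It held without LP replicate 4 (-4.25, adjusted p = 0.0274 in edgeR) and without mature replicate 4 (-3.38, adjusted p = 0.0362 in edgeR).

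Ereg, which encodes epiregulin and lies between Epgn and Areg, was listed at 0 in all 4 LP libraries and in mature replicates 1 to 3. Mature replicate 4 held 12 counts, or 1.81 CPM, and was the mature library with the least Areg and Epgn. A count of 0 allows a level of up to 0.416 to 0.788 CPM, depending on the library, and this limit of 3 counts covers counting error only. Exons of Ereg overlap an antisense gene, and the strand setting of the counting is not given in the sources used here, so reads of the pair cannot be told apart.

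Hbegf on chromosome 18 encodes heparin-binding EGF-like growth factor, a ligand of EGFR and ERBB4. It had 18.7, 24.2, 30.6 and 17.2 CPM in mature replicates 1 to 4 and 17.4, 6.04, 9.79 and 7.91 CPM in LP replicates 1 to 4. The fractions met where LP replicate 1 lay just above mature replicate 4. With means of 22.7 ± 6.09 CPM in mature cells and 10.3 ± 4.997 CPM in LP (SD, n = 4 each), the log2 fold change was -1.14 (SE 0.374, 95% interval -1.96 to -0.31, adjusted p = 0.0481 in edgeR), a level 2.20-fold higher in mature cells. This call held when LP replicate 1 was left out (-1.51, adjusted p = 0.0189 in edgeR). It was lost without any one of the other libraries, with an adjusted p in edgeR of 0.117, 0.0962 and 0.118 for LP replicates 2, 3 and 4 and 0.0649, 0.0963, 0.118 and 0.0545 for mature replicates 1 to 4.

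Tgfa on chromosome 6 (86195038 to 86275744) encodes transforming growth factor alpha, a ligand of EGFR. It had 38.0, 16.3, 25.3 and 27.3 CPM in mature replicates 1 to 4 and 10.02, 14.4, 0.498 and 4.02 CPM in LP replicates 1 to 4. Every mature library lay above every LP library, a separation that 15.5% of all tested genes showed in this direction, and the exact permutation p was 0.0286, two-sided, the smallest that 4 against 4 libraries can give. The same permutation test gave 0.0286 for Erbb4 and 0.0571 for each of Areg, Hbegf and Epgn. The log2 fold change of Tgfa was -1.88 (SE 0.679, 95% interval -3.38 to -0.38) and did not pass the adjustment over all genes (adjusted p = 0.0675 in edgeR). It passed without LP replicate 2 (-2.45, adjusted p = 0.0461 in edgeR) and without LP replicate 3 (-1.49, adjusted p = 0.0476 in edgeR). Exons of Tgfa overlap those of the annotated gene Gm43917 on the opposite strand, and reads of the pair cannot be told apart.

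Btc encodes betacellulin, a ligand of EGFR and ERBB4. It had 22.1, 16.1, 13.3 and 23.4 CPM in LP replicates 1 to 4 and 10.5, 21.8, 12.6 and 17.2 CPM in mature replicates 1 to 4. The fractions overlapped along most of their range. The log2 fold change was 0.28 (SE 0.323, adjusted p = 0.572 in edgeR), and its 95% interval of -0.43 to 0.99 leaves room for a difference in either direction.

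**Figure D1:**
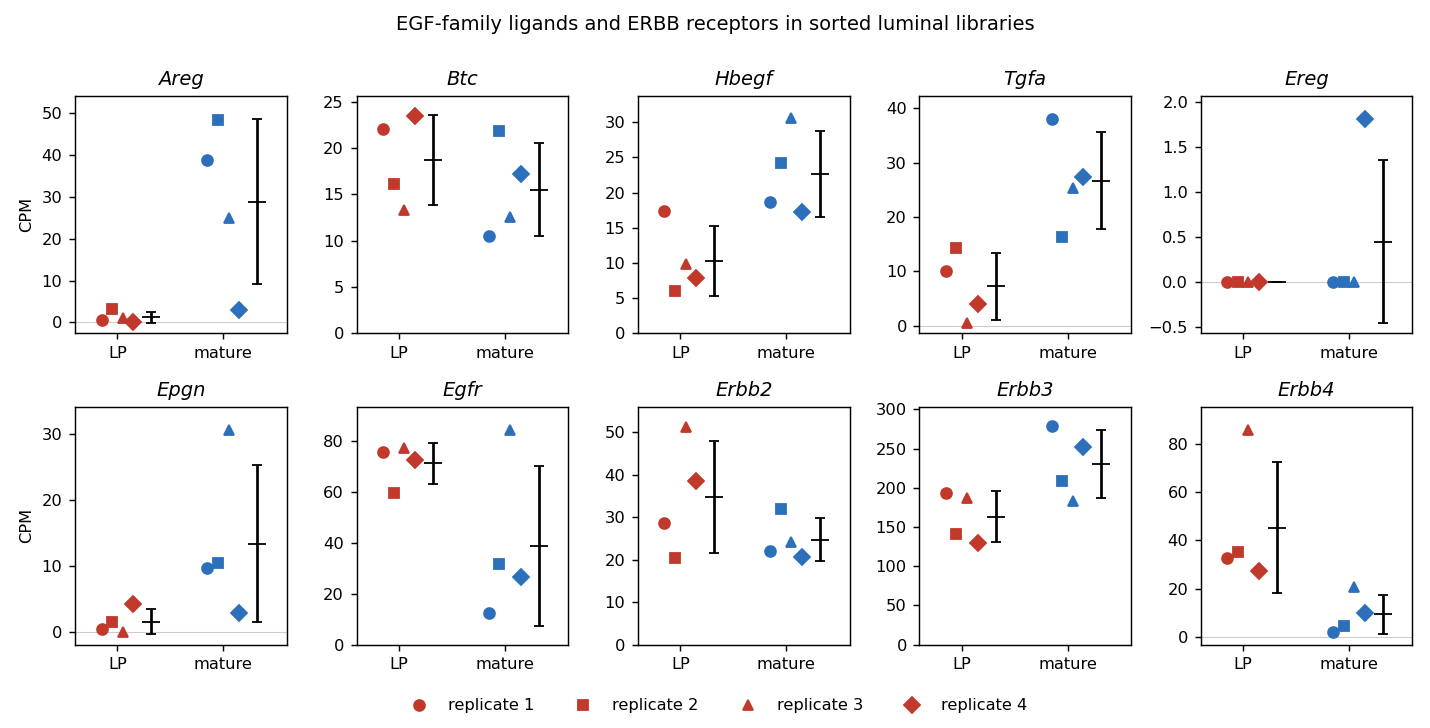
Level of each gene in CPM (vertical axis, linear, a scale per gene) in LP (red) and mature (blue) libraries, where the symbol gives the replicate number and the black bar the mean ± SD of the 4 libraries beside it. Areg is at 25.0 to 48.3 CPM in mature replicates 1 to 3 and at 3.01 CPM in replicate 4, and mature replicate 3 is the library in which Egfr (84.3 CPM) and Epgn (30.6 CPM) are highest.

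Among the receptors, Erbb4 on chromosome 1 (68031884 to 69108576, minus strand) differed most. It had 32.5, 35.4, 85.7 and 27.2 CPM in LP replicates 1 to 4 and 2.11, 4.47, 20.6 and 9.79 CPM in mature replicates 1 to 4. Every LP library was above every mature library, as for 14% of all tested genes in this direction, and LP replicate 3 and mature replicate 3 were the highest of their fractions. Erbb4 and Tgfa were the 2 members without overlap, against 29.5% of all tested genes in either direction. The mean was 45.2 ± 27.2 CPM in LP and 9.25 ± 8.25 CPM in mature cells (SD, n = 4 each). In edgeR the log2 fold change was 2.27 (SE 0.624, 95% interval 0.89 to 3.65, adjusted p = 0.0228), a level 4.82-fold higher in LP. Without mature replicate 3 it was 3.06 (adjusted p = 0.00507 in edgeR). The call was lost without LP replicate 3 (1.77, adjusted p = 0.0727 in edgeR), without mature replicate 2 (2.07, adjusted p = 0.0594) and without mature replicate 4 (2.304, adjusted p = 0.0519).

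Egfr on chromosome 11 (16752203 to 16913907, plus strand) encodes the receptor that binds all 6 ligands described here. It had 75.8, 59.7, 77.4 and 72.4 CPM in LP replicates 1 to 4 and 12.5, 31.8, 84.3 and 26.4 CPM in mature replicates 1 to 4. The LP libraries were close to each other, and of the mature libraries only replicate 3 reached their range, above all of them. With all libraries the log2 fold change was 0.88 (SE 0.454, 95% interval -0.13 to 1.88) and did not pass the test (adjusted p = 0.186 in edgeR). Without mature replicate 3 the mature mean was 23.6 ± 9.94 CPM (SD, n = 3), the log2 fold change was 1.64 and the adjusted p was 0.00392 in edgeR, so the call on Egfr depended on that library. Of the 5 LP markers, Kit (179 CPM), Elf5 (112 CPM), Cd14 (321 CPM) and Csn3 (673 CPM) had their highest mature value in replicate 3, while Aldh1a3 (354 CPM) was highest in replicate 4 (378 CPM). All 5 were below every LP library there. LP had 12142 to 18322 CPM of Cd14, 2128 to 8654 CPM of Csn3 and 522 to 832 CPM of Kit. Elf5 (191 to 249 CPM in LP) and Aldh1a3 (422 to 758 CPM in LP) lay closer to their values in mature replicate 3. Kit and possibly Cd14 reflect the sort itself. The part of LP cells in the Egfr value of that library was not tested.

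Erbb3 on chromosome 10 (128567523 to 128589635, minus strand) had the highest read counts of the family. It had 279, 209, 183 and 251 CPM in mature replicates 1 to 4 and 194, 141, 187 and 129 CPM in LP replicates 1 to 4. Mature replicate 3 was again the library that fell within the LP range. The log2 fold change was -0.50 (SE 0.194, 95% interval -0.93 to -0.07, adjusted p = 0.0853 in edgeR) and did not pass. Without mature replicate 3 it was -0.57 and did not pass either (adjusted p = 0.0553 in edgeR). Erbb2 on chromosome 11 (98412484 to 98437716, plus strand) had 28.8, 20.4, 51.3 and 38.6 CPM in LP replicates 1 to 4 and 21.9, 32.0, 24.3 and 20.6 CPM in mature replicates 1 to 4. The fractions overlapped, with a log2 fold change of 0.49 (SE 0.296, 95% interval -0.16 to 1.15, adjusted p = 0.253 in edgeR). Exons of Erbb2 overlap those of Mien1 on the opposite strand, so reads of this pair cannot be told apart either.

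**Figure D2:**
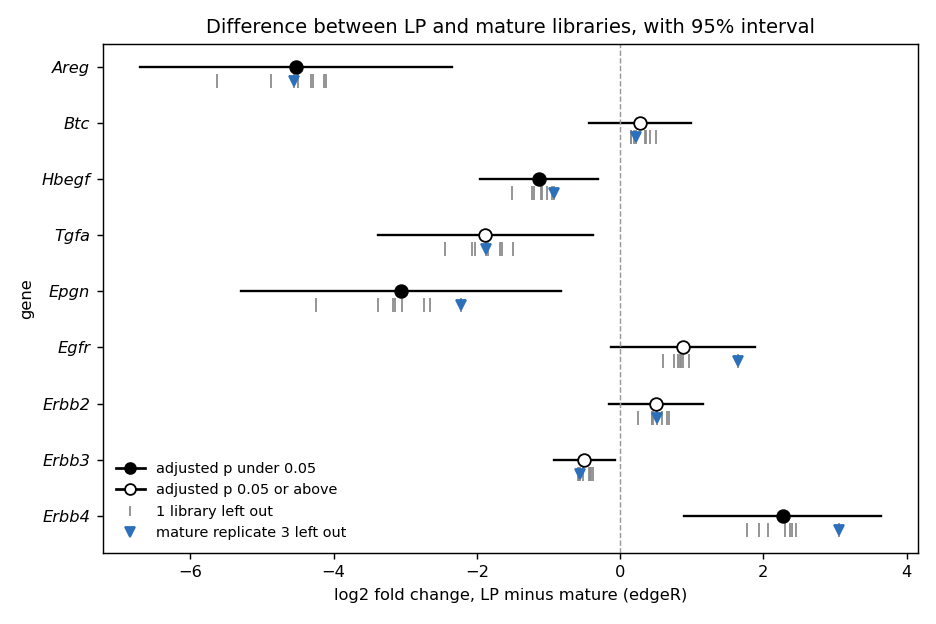
Log2 fold change, LP minus mature (horizontal axis), for the 9 tested genes in edgeR, with bars for the 95% interval, filled circles for an adjusted p under 0.05, grey ticks for fits that left out 1 library and blue triangles for the fit without mature replicate 3. The triangle moves away from the circle for Egfr (0.88 to 1.64), Erbb4 (2.27 to 3.06) and Epgn (-3.06 to -2.22), while every tick of Areg stays between -5.63 and -4.11.

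To compare levels between genes, CPM values were divided by the length of each gene's merged exons. Reads were not split across introns in alignment and the counting annotation is not given, so such comparisons between genes are approximate. On this scale of CPM per kilobase, the ligands together had 49.4, 57.9, 50.5 and 16.1 in mature replicates 1 to 4 and 10.8, 10.5, 6.00 and 9.82 in LP replicates 1 to 4. All mature libraries were above LP, and replicate 4 was the nearest to it. The receptors together had 43.7 ± 8.92 CPM per kilobase in LP and 47.2 ± 3.81 in mature cells (SD, n = 4 each), so their summed level differed by less than the spread between libraries.

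The make-up of the ligand sum differed between the fractions. In LP the order per kilobase was Btc (4.14 ± 1.07 CPM per kilobase), Hbegf (2.13 ± 1.03), Tgfa (1.11 ± 0.952), Areg (1.01 ± 1.13), Epgn (0.874 ± 1.07) and Ereg, which was at 0. Btc was above Hbegf in 4 of 4 LP libraries, but Tgfa was above Areg in only 2 of 4, and the lower ranks lay within each other's spread. In mature cells the order was Areg (23.7 ± 16.2), Epgn (7.43 ± 6.62), Hbegf (4.69 ± 1.26), Tgfa (4.11 ± 1.37), Btc (3.43 ± 1.11) and Ereg (0.11 ± 0.219). This order of means was not that of every library. In mature replicate 4 Areg (2.48 CPM per kilobase) was below Tgfa (4.202), Btc (3.80) and Hbegf (3.55), although it was above Epgn in 4 of 4. Hbegf was above Tgfa in 2 of 4 and Tgfa above Btc in 3 of 4. With the longest RefSeq transcript as length the mean of Hbegf became 9.54 in mature cells, above Epgn (7.625).

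As shares of the ligand sum, Areg made 64.7%, 68.7%, 40.7% and 15.45% in mature replicates 1 to 4 and 4.45%, 24.8%, 15.95% and 0% in LP replicates 1 to 4. Mature replicate 4 therefore had an Areg share within the LP range. Btc made 45.4%, 33.9%, 49.0% and 52.8% in LP and 4.73%, 8.33%, 5.50% and 23.7% in mature cells, and these did not overlap, although its level was not called different. A share moves with the other ligands of the sum.

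Among the receptors Erbb3 was first in every library, with 27.1 ± 5.39 CPM per kilobase in LP and 38.3 ± 7.12 in mature cells (SD, n = 4 each). Erbb2 (6.67 ± 2.55) and Egfr (6.30 ± 0.71) were not ordered in LP, since each was above the other in 2 of 4 libraries, and Erbb4 came last with 3.66 ± 2.20. In mature cells Erbb2 (4.75 ± 0.98) was above Egfr (3.42 ± 2.78) in 3 of 4 libraries, replicate 3 being the other, and Erbb4 was last in 4 of 4 with 0.749 ± 0.667. The share of Erbb4 in the receptor sum was 5.59%, 8.06%, 12.7% and 5.87% in LP replicates 1 to 4 and 0.33%, 0.822%, 3.78% and 1.62% in mature replicates 1 to 4, without overlap.

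**Figure D3:**
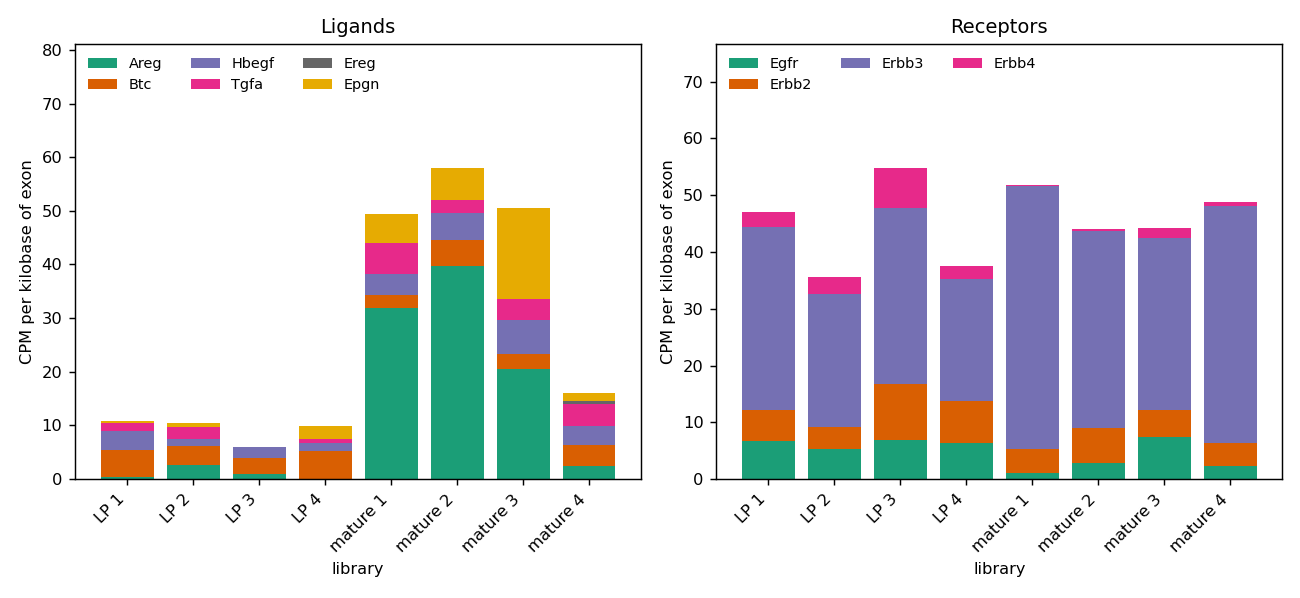
Stacked CPM per kilobase of exon (vertical axis) of the 6 ligands and the 4 receptors in each library, with 1 colour per gene. The ligand bars of mature replicates 1 to 3 reach 49.4 to 57.9 with Areg as the largest block, that of mature replicate 4 reaches 16.1, those of LP stay at 10.8 or below, and Erbb3 is the largest block of every receptor bar.

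Of the 5 other genes for ERBB ligands, the neuregulin genes Nrg1 and Nrg4, whose products bind ERBB3 and ERBB4 or ERBB4 alone, were higher in mature cells. Nrg1 had 23.8, 38.6, 40.3 and 44.1 CPM in mature replicates 1 to 4 and 13.6, 16.8, 16.3 and 18.3 CPM in LP replicates 1 to 4 (log2 fold change -1.17, SE 0.249, adjusted p = 0.00697 in edgeR). Nrg4 had 44.0, 50.2, 37.4 and 55.0 CPM in mature cells and 23.7, 16.5, 26.9 and 25.1 CPM in LP (log2 fold change -1.02, SE 0.222, adjusted p = 0.00797 in edgeR). Neither gene overlapped between the fractions, and both calls held in all 14 alternative fits. Nrg3 (-0.39) and Nrg2 (0.30) did not pass, and Egf was too low to be tested, with 0.145 to 2.16 CPM in LP and 0 to 0.703 CPM in mature cells. The median log2 fold change of the 4 tested genes was -0.70, against 0.00 over all tested genes. In this direction 13.8% of all tested genes were called and 15.5% did not overlap.

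Of 9 genes for ligand release, 8 were tested and 2 were higher in mature cells, with a median log2 fold change of -0.44. The called share of 25% was at that of all tested genes (24.7%). Adam10, a protease that sheds the precursors of Egf and Btc, had 726, 682, 741 and 844 CPM in mature replicates 1 to 4 and 376, 218, 255 and 222 CPM in LP replicates 1 to 4. The separation was complete (log2 fold change -1.48, SE 0.204, adjusted p = 0.000859 in edgeR) and held in all 14 alternative fits. Timp3, an inhibitor of ADAM17, was also higher in mature cells (-1.14, adjusted p = 0.0482 in edgeR), but this call held when mature replicate 1 was left out and was lost without any one of the other libraries (highest adjusted p = 0.131). Adam17, which sheds the precursors of Areg, Hbegf and Tgfa, had 37.8 to 64.0 CPM in mature cells and 50.5 to 72.0 CPM in LP and did not pass (log2 fold change 0.41, SE 0.21).

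Downstream of the receptors, 22 adaptors and kinases were tested and 3 were called, which is 13.6% against 24.7% of all tested genes. Pik3r1, a regulatory subunit of PI3 kinase, had 711 to 1008 CPM in LP and 52.3 to 103 CPM in mature cells (log2 fold change 3.49, SE 0.267, adjusted p = 0.000104 in edgeR), the largest difference of this list. Plcg1, a phospholipase that docks on active receptors, had 17.0 to 37.7 CPM in LP and 5.88 to 13.9 CPM in mature cells (1.57, adjusted p = 0.0120 in edgeR). The kinase gene Braf was higher in mature cells, with 95.7 to 165 CPM against 58.4 to 81.3 CPM in LP (-0.83, adjusted p = 0.0111 in edgeR). These 3 calls held in all 14 alternative fits. The other 19 genes did not pass, and the median of the list was 0.05.

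Of 11 genes for inhibitors that act on the receptors, 4 were higher in mature cells and 1 in LP, against 13.8% and 10.9% of all tested genes. Ptpn1, a tyrosine phosphatase, had 228 to 372 CPM in mature cells and 53.5 to 122 CPM in LP (log2 fold change -1.71, SE 0.257, adjusted p = 0.00127 in edgeR). Cblb, a ubiquitin ligase that sends receptors to degradation, had 31.0 to 105 CPM in mature cells and 9.02 to 21.1 CPM in LP (-1.76, adjusted p = 0.0114 in edgeR). Socs5, a suppressor of cytokine signalling that also acts on EGFR, was the one higher in LP, with 121 to 157 CPM against 25.0 to 53.0 CPM in mature cells (1.78, adjusted p = 0.000587 in edgeR). The remaining calls, Socs4 (-1.15, adjusted p = 0.0438 in edgeR) and Errfi1 (-0.68, adjusted p = 0.0394 in edgeR), held in fewer fits. Errfi1 lost its call without any 1 of the 4 LP libraries, mature replicate 1 or mature replicate 2 (highest adjusted p = 0.113), and Socs4 lost it without these or mature replicate 4 (highest adjusted p = 0.135), which left 3 called genes in most such fits. Without mature replicate 3 there were 6, Lrig3 being added (log2 fold change 4.50, adjusted p = 0.0148 in edgeR). Over all genes that fit also called more, 3414 against 3161 with all libraries. Lrig3 had 1.53 to 4.98 CPM in LP and 0, 0, 3.03 and 0.301 CPM in mature replicates 1 to 4. Its fold change without mature replicate 3 therefore rests on mature values at or near 0.

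Of 10 genes used as readouts of MAP kinase activity, 2 were higher in LP and 1 in mature cells, and 7 did not pass. The called share of 30% was near the 24.7% of all tested genes. Phlda1 had 1195 to 1358 CPM in LP and 216 to 904 CPM in mature cells (log2 fold change 1.51, SE 0.401, adjusted p = 0.0197 in edgeR), the highest mature value again being that of replicate 3. Without that library the log2 fold change of Phlda1 was 2.14 (adjusted p = 0.000424 in edgeR). Etv5, a transcription factor induced by MAP kinase, had 8.05 to 27.5 CPM in LP and 0.452 to 2.95 CPM in mature cells (3.62, adjusted p = 0.00291 in edgeR). It passed the filter on low counts only through the LP libraries, and a minimum of 10 counts in every library removed it from the test. Dusp4, a MAP kinase phosphatase, had 168, 105, 72.0 and 70.7 CPM in mature replicates 1 to 4 and 10.7 to 17.7 CPM in LP (-2.94, adjusted p = 0.000326 in edgeR). The median log2 fold change of the list was 0.51. Without mature replicate 3 there were 5 called genes, since Epha4 (1.61, adjusted p = 0.0187 in edgeR) and Spry2 (0.79, adjusted p = 0.0289 in edgeR) were added, both higher in LP. Over all genes that fit also called more as higher in LP, 1668 against 1394 with all libraries. Immediate-early and heat-shock genes that respond to tissue dissociation moved as well. Of 12 such genes, 7 were higher in every mature library than in any LP library and 1 was the reverse, against 15.5% and 14% of all tested genes, and their part in the family's values was not tested.

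**Figure D4:**
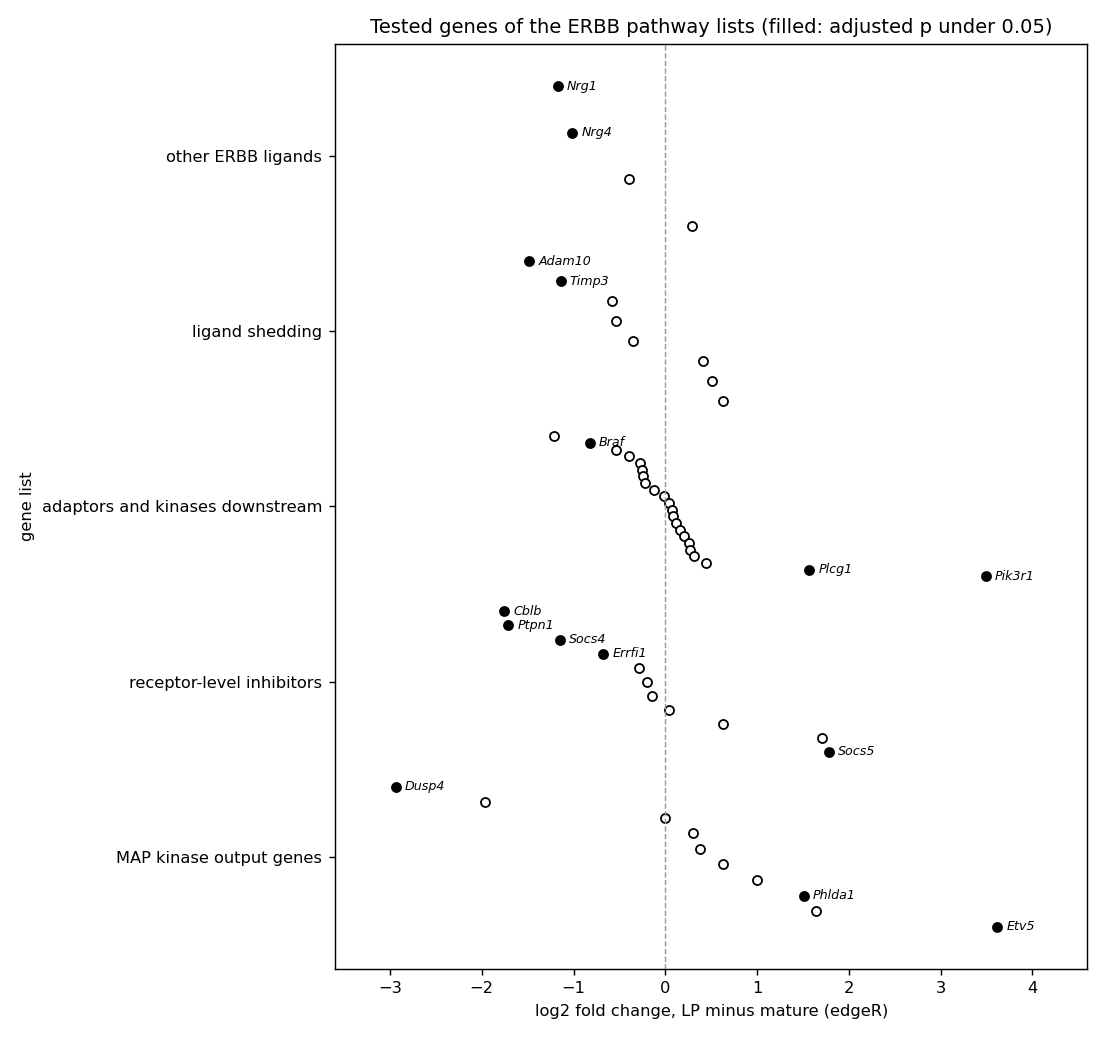
Log2 fold change, LP minus mature (horizontal axis), of each tested gene in the 5 pathway lists (vertical axis), in edgeR, where filled points have an adjusted p under 0.05 and are named. The called points of the other ERBB ligands and of ligand release lie on the mature side, and the remaining lists have called points on both sides.

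The genes with a pattern most like that of Areg were found from log2 CPM centred per gene, by the root mean square difference over the 8 libraries. Ccl11, which encodes the chemokine eotaxin, was nearest at 0.795 log2 units, followed by E230032D23Rik (1.00), 5430416N02Rik (1.00), Adm (1.03) and Zfp57 (1.04), against a median of 2.57 over all tested genes. Adm, which encodes adrenomedullin, had 327, 431, 90.4 and 42.5 CPM in mature replicates 1 to 4 and 7.64 to 26.0 CPM in LP. Ccl11 had 11.5, 15.8, 14.9 and 3.77 CPM in mature cells and 0, 3.31, 1.16 and 0 CPM in LP. Zfp57 had 18.0, 6.57, 9.53 and 0 CPM in mature cells and 0, 2.01, 0.166 and 0 CPM in LP. Between the fractions Ccl11 passed the test (adjusted p = 0.0443 in edgeR) and Zfp57 did not (adjusted p = 0.0754 in edgeR). At values this low the likeness depends on the prior count of 2 used for log2 CPM. Replicate 4 was the lowest mature library for all 5 genes, as for Areg, which follows from how they were chosen.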

How the data were processed

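Bulk RNA was sequenced from 4 LP and 4 mature libraries after low-input cDNA amplification. Per the labels and the paper's methods, the authors trimmed reads with cutadapt (4.2 in the submitters' processing notes), aligned them to mm10 with Bowtie2 (2.3.5.1 there), which does not split reads across introns, and deposited a raw, unnormalized count for each gene. The counting program, its annotation and its strand setting are not given in the sources used here. Of 24594 Entrez Gene IDs, 24570 matched a symbol in RefSeq. No count stood on an entry without a gene. Same-fraction libraries differed by more than counting noise, so none was a copy of another, and each was used as 1 replicate. This check cannot tell separate animals from separate preparations of the same cells.

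The analysis used R 4.3.3 with edgeR 4.0.16 (and limma 3.58.1). TMM factors and filterByExpr by fraction left 12816 genes, which were compared by the quasi-likelihood F-test, without a block for the replicate number. The threshold was an adjusted p-value of 0.05 (Benjamini-Hochberg, all tested genes). The code was tested on simulated data. CPM carry no added count, and likeness to Areg used a prior count of 2. Exon lengths came from the GENCODE annotation of mm10, and promoters from RefSeq. The common biological coefficient of variation was 0.393.

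All 10 genes, the pathway genes past the threshold, every gene of a list under 6 genes and the 5 genes most like Areg were named by rule. Members and lists were chosen with earlier results of these data known, and 1 gene of the downstream list is not reported here. Alternatives were RLE factors, the likelihood ratio test, DESeq2 1.42.0, no filter, a minimum of 10 counts in every library, a replicate block, each library left out, and the longest RefSeq transcript as length.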

Additional observations from a re-analysis of the deposited data

Results flagged for a closer look

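In each fraction the highest or lowest library of each gene was compared with the nearest other one, as a share of the range of the 4 libraries, over 19 sets of libraries, of which chance alone passes about 1 in 20 (0.95 expected). Ereg in mature cells reached a ratio of 1, since mature replicate 4 held 1.81 CPM (12 counts) and the other 3 libraries were at 0. With 3 libraries at 0 the ratio is 1 whatever the value of the remaining one, so it says nothing of its size. Erbb4 in LP reached 0.86, above the 95% critical value of Dixon's test, where LP replicate 3 was at 85.7 CPM and the next library at 35.4 CPM. Without LP replicate 3 the log2 fold change of Erbb4 was 1.77 (adjusted p = 0.0727 in edgeR).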

How the results depend on the processing

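No gene of the family changed direction in any alternative that could be run. Areg was called in 13 of 13 (adjusted p from 8.98e-05 to 0.0277 in edgeR and DESeq2), Erbb4 in 11 of 14, Hbegf in 5 of 14, Epgn in 4 of 13, Tgfa in 4 of 13 and Egfr in 1 of 14. Btc, Erbb2 and Erbb3 were called in none. The minimum of 10 counts in every library removed Areg, Tgfa and Epgn from the test. With it, with no filter and with the replicate block, 2 members were called, of which 1 was higher in mature cells. RLE factors left 3 called members and 1 called gene of ligand release, because Epgn (adjusted p = 0.0501 in edgeR) and Timp3 no longer passed, and 2 members were then higher in mature cells. No filter and the replicate block also left 1 gene of ligand release, and 3 inhibitors. Leaving out 1 library gave 1 to 3 called members (0 to 2 higher in LP, 1 to 2 in mature cells), 1 to 2 genes of ligand release, 3 to 6 inhibitors and 3 to 5 MAP kinase readouts. Over all genes it gave 2338 to 3414 (1001 to 1668 higher in LP, 1337 to 1746 in mature cells).

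Numbers shared by an LP and a mature library are not said to mark an animal. Their deviations from the fraction means correlated by 0.113, 0.0618, 0.148 and 0.0844, and 7 of 8 libraries correlated best with their own number, a hint from the data only. With the replicate block 3027 genes were called, 2757 of them also without it. Hbegf (adjusted p = 0.0598) and Epgn (0.127) then did not pass, while Areg (0.00165) and Erbb4 (0.00589) did in edgeR.

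With the longest RefSeq transcript as length, CPM per kilobase became 6.51 in LP and 5.40 in mature cells for Btc, 4.33 and 9.54 for Hbegf, and 5.90 in mature cells for Tgfa, which put Hbegf above Epgn in mature cells. Low counts limit Ereg, Egf, the LP values of Areg and Epgn, and the mature values of Etv5 and Lrig3.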
